A study of Homo sapiens with 10 samples.

Results

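The SP and KLF transcription factors described here were SP1, SP2, SP3, SP4, KLF3, KLF6, KLF10, KLF11, KLF13 and KLF16. They were taken as every non-control probe whose RefSeq transcript carries one of these 10 symbols, which gave 11 probes, 1 for each gene and a second for KLF6, among 42405 distinct probes. All 10 genes entered the fit, out of 17379 genes tested. The cells were MEG-01, an established human megakaryoblastic leukaemia line used as a stand-in for megakaryocytes, the bone marrow cells that shed platelets. By the sample titles and the design text all cultures were transfected, and the study's methods name nucleofection for both groups. The source field of the control samples instead reads as untreated, and if that were so each difference below would include the effect of nucleofection. In 5 cultures the agent was 200 nM of pre-miR-1225-3p, a double-stranded precursor that raises this microRNA, and in the other 5 it was a negative control precursor with a scrambled sequence. Total RNA was taken 24 h later, labelled with Cy3 and read on single-colour Agilent arrays, 1 array per culture. The labels call the arrays biological replicates and the submitters describe independent experiments run at the same time. The microRNA itself was not analysed here, and a line in culture stands for primary megakaryocytes only in part.

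SP and KLF proteins bind GC-rich stretches of DNA, the GC box and the related CACC box, through a block of C2H2 zinc fingers at their C-terminal end. SP1, SP3 and SP4 carry glutamine-rich activation domains and compete for the same sites in the promoters of many housekeeping genes, whereas several KLF proteins act as repressors: KLF3 through the corepressor CTBP, and KLF10, KLF11, KLF13 and KLF16 through SIN3A. In blood precursors the family is best known for KLF1, the erythroid factor that drives globin genes, and for KLF3, which is made from a KLF1-driven promoter in red cell precursors.

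The transfected microRNA is shown first, since its identity defines the treated group. RefSeq places the mature arm at chr16:2090195-2090216 on the minus strand of GRCh38.p14, and bases 2 to 8, the seed through which a microRNA pairs with its targets, are in capitals.
hsa-miR-1225-3p: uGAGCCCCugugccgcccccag

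The promoters of the factors themselves are given next because they carry the element that the family binds. RefSeq promoter windows ran from 250 bases before to 50 bases after a gene start. They are reported for 8 of the 10 genes: SP1, SP2, SP3, SP4, KLF6, KLF11, KLF13 and KLF16. Windows of KLF3 and KLF10 were left out of the member counts. The box counts for these 8 genes thus do not show whether KLF3 and KLF10 hold either box. Each of these 8 held the GC box GGGCGG on at least 1 strand in every one of its windows, with 4 copies for SP4, 3 for KLF13, 7 for KLF16 and 10 in 1 of the 2 windows of SP1, counting overlapping copies. The CACC box CCACACCC was found in none of them. The GC box was present in 44.95% of all 35116 RefSeq windows, the longer GGGGCGGGG in 15.68% and the CACC box in 3.28%. Counted by gene, as for the members, the GC box was far more common. It was held by 7200 of the 9636 tested genes with a window, and the CACC box by 411. The 250 bases before the start are printed below for the 3 factors whose arrays separated completely by group and for SP1, whose difference did not pass the threshold, with GC boxes of either strand in capitals. KLF11 and SP1 each have 2 windows, and the one with more GC boxes is shown: 7 against 2 for KLF11 and 10 against 4 for SP1, of which 6 and 8 lie in the printed bases. They lie at chr7:21427833-21428082 for SP4, chr2:10043971-10044220 for KLF11, chr15:31326585-31326834 for KLF13 and chr12:53380394-53380643 for SP1, all on the plus strand of GRCh38.p14.
SP4: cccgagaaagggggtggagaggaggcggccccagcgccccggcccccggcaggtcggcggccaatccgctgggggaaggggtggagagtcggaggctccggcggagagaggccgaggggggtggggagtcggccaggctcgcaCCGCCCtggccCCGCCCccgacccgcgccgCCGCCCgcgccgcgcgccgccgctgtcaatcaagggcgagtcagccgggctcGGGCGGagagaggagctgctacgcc
KLF11: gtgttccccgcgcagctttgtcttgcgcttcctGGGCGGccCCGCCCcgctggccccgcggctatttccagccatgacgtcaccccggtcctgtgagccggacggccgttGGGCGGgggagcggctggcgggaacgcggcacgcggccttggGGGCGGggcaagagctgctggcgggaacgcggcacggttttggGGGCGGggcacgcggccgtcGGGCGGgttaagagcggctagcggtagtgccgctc
KLF13: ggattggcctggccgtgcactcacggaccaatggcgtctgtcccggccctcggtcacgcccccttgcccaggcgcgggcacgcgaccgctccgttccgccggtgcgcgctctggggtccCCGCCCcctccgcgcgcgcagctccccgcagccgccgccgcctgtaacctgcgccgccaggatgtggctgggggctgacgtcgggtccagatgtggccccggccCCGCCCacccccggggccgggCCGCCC
SP1: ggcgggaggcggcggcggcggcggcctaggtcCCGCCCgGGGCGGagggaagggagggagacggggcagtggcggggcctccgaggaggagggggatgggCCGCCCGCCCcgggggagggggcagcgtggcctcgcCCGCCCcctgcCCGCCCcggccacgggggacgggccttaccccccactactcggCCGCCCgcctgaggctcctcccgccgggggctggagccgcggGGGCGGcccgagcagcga

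Values are log2 units of the processed signal after cyclic loess, which brings the arrays to a common scale, and differences are miR-1225-3p minus scrambled. A gene was called at a Benjamini-Hochberg adjusted p under 0.05 in limma, adjusted over all genes tested. The first principal component, which held 69.6% of the variance, placed 4 of the 5 miR-1225-3p arrays at -133.4 to -53.0 and the scrambled arrays at 48.7 to 79.9. The array labelled miR-1225-3p replicate 5 stood at 56.7, among the scrambled arrays, so each result below is given with it and, where this matters, without it. The median difference over all genes was -0.06, with 2947 genes higher and 3144 lower. These splits were 4562 and 2585 after subtracting the 75th percentile of each array, 3635 and 2511 after quantile normalization, and 174 and 1092 with no normalization. The share of spots well above background was 41.95 to 53.8% with miR-1225-3p and 43.1 to 61.2% with the scrambled control, and no spot was saturated. In RNA from whole cultures, fewer cells of a kind and less RNA per cell cannot be told apart.

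Of the 10 SP and KLF genes, 5 were lower with miR-1225-3p (SP4, KLF6, KLF11, KLF13 and KLF16) and none was higher. The background was high: 35.0% of all genes tested were called, 17.0% higher and 18.1% lower. Without replicate 5 of miR-1225-3p, 7 of the 10 were lower, SP2 and SP3 being added, while the share of all genes called rose to 55.4%. The groups did not overlap for 3 of the 10 genes, SP4, KLF11 and KLF13, against 12.7% of all genes. The difference was negative for 9 of the 10 genes and for 9257 of the 17379 genes tested. The median over the 10 genes was -0.82, -0.92 over the SP genes and -0.82 over the KLF genes. After scaling to the 75th percentile the median over the 10 genes was -0.43. The median absolute difference over all genes was 0.51. The 10 genes were not drawn at random, so these shares describe them and carry no test.

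**Figure D1:**
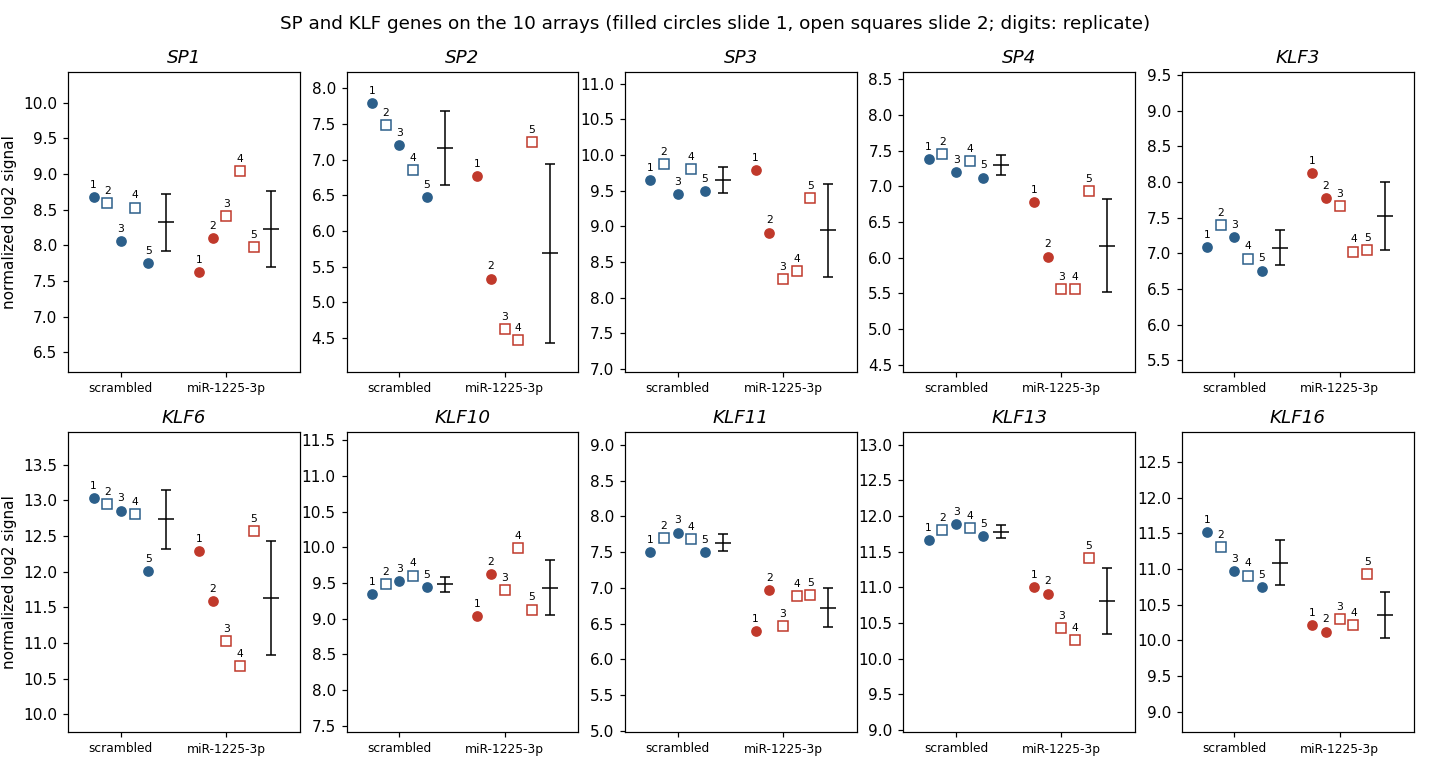
Normalized log2 signal (vertical axis, each panel spanning the same number of log2 units) of the 10 SP and KLF genes on each array, scrambled in blue and miR-1225-3p in red, with the mean and SD of 5 arrays in black. All miR-1225-3p points of SP4, KLF11 and KLF13 lie below all scrambled points, whereas those of SP1 and KLF10 lie on both sides.

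Among the SP genes, SP4 alone separated completely by group. SP4 is best known from neurons, where it acts on genes of synaptic signalling and energy supply. On the scrambled arrays it read 7.38, 7.45, 7.20, 7.35 and 7.12 in replicate order 1 to 5, and on the miR-1225-3p arrays 6.77, 6.01, 5.56, 5.56 and 6.93. All miR-1225-3p arrays lay below all scrambled arrays, with replicates 3 and 4 lowest and replicates 1 and 5 nearest to the scrambled values. The means were 6.17 ± 0.655 and 7.30 ± 0.136 (SD, n = 5 arrays each). SP4 was thus 2.19-fold lower, a log2 difference of -1.13 with a standard error of 0.281 and a limma adjusted p of 0.0188. The two-sided exact permutation test over arrays gave p = 0.00794, the smallest that 5 against 5 arrays allow, without adjustment for the 10 genes tested in this way.

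SP3 shares its sites with SP1 and is known both to activate and to repress. It read 9.65, 9.87, 9.45, 9.81 and 9.49 on the scrambled arrays and 9.78, 8.91, 8.26, 8.38 and 9.39 on the miR-1225-3p arrays. Replicates 2 to 5 of miR-1225-3p lay below every scrambled array, while replicate 1 lay within the scrambled range. The difference was -0.71 (95% interval -1.34 to -0.08) with a limma adjusted p of 0.0725, which missed the threshold, and the exact permutation p was 0.0556. Leaving out replicate 1 of miR-1225-3p gave -0.92 with an adjusted p of 0.0360, and leaving out replicate 5 gave -0.82 with 0.0376.

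SP2, a less studied relative of SP1 with a divergent DNA-binding preference, had the widest spread. Its scrambled values were 7.79, 7.48, 7.21, 6.85 and 6.47, and its miR-1225-3p values 6.76, 5.33, 4.63, 4.47 and 7.24. The middle replicates of miR-1225-3p, 2, 3 and 4, were far below the scrambled arrays, but replicates 1 and 5 were within their range. Its probe stood well above background on all 5 scrambled arrays but, of those with miR-1225-3p, on 3. The difference of -1.47 was the lowest among the 10 genes, yet its interval ran from -2.68 to -0.27 and the limma adjusted p was 0.0571, with an exact permutation p of 0.0635. Without replicate 5 of miR-1225-3p it was -1.86 with an adjusted p of 0.00843, and without replicate 1 it was -1.74 with 0.0478.

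SP1, the founding member and the factor through which GC boxes were first studied, gave no difference past the threshold. Its levels ran from 7.76 to 8.67 on the scrambled arrays (median 8.53) and from 7.63 to 9.04 on the miR-1225-3p arrays (median 8.10). The highest and the lowest values both came from miR-1225-3p arrays, replicates 4 and 1. The difference was -0.09 with a 95% interval of -0.71 to 0.53 and a limma adjusted p of 0.805. A change of either sign within these bounds thus remained possible with this number of arrays. Its sign turned after scaling to the 75th percentile (0.12), after quantile normalization (0.06) and without replicate 1 of miR-1225-3p (0.06).

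KLF11 and KLF13 were called under more of the alternatives than any other of the 10 genes. KLF11, first described as a TGF-beta inducible early gene, is a repressor that also acts in pancreatic beta cells. It read 7.51, 7.70, 7.77, 7.68 and 7.50 with the scrambled control and 6.39, 6.97, 6.47, 6.88 and 6.90 with miR-1225-3p. The groups were apart by 0.54 between the lowest scrambled and the highest miR-1225-3p array, the widest such gap among the 10 genes. Replicate 5 of miR-1225-3p, which stood among the scrambled arrays on the first principal component, read 0.73 below the scrambled mean for KLF11 and fell within the range of the other miR-1225-3p arrays. KLF11 was 1.88-fold lower, with a log2 difference of -0.91, a standard error of 0.152 and a limma adjusted p of 0.0136, and the exact permutation p was 0.00794. With normexp background correction of the median spot signal in place of the processed signal, KLF11 differed by -0.57 and SP4 by -0.58, both still called.

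KLF13, a SIN3A-dependent repressor that is also known to raise the chemokine CCL5 in T cells, was among the brighter probes. It read 11.66, 11.81, 11.89, 11.83 and 11.72 on the scrambled arrays and 11.00, 10.91, 10.43, 10.26 and 11.41 on the miR-1225-3p arrays. No array of one group reached the other, and replicate 5 came nearest to the scrambled values. KLF13 was 1.97-fold lower (10.80 ± 0.462 against 11.78 ± 0.0907, SD, n = 5 each), a log2 difference of -0.98 with a standard error of 0.210 and a limma adjusted p of 0.0148. The exact permutation p was 0.00794. After scaling to the 75th percentile the difference was -0.49 and still called, while the median of all genes moved up to 0.16.

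KLF16, another SIN3A-binding repressor, was lower with some overlap. Its scrambled values were 11.51, 11.31, 10.98, 10.91 and 10.75 and its miR-1225-3p values 10.21, 10.13, 10.29, 10.22 and 10.93. Replicates 1 to 4 of miR-1225-3p lay close together below every scrambled array, and replicate 5 lay inside the scrambled range. KLF16 was 1.67-fold lower, with a log2 difference of -0.74, a standard error of 0.202 and a limma adjusted p of 0.0242, and the exact permutation p was 0.0238. The call was lost without any 1 of 5 arrays (miR-1225-3p replicates 2, 3 and 4, scrambled replicates 1 and 2), where the adjusted p reached 0.0638, within slide 1 (-0.91), and after scaling to the 75th percentile, where the difference was -0.28.

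KLF6, a widely expressed activator that is induced early after injury and is also described as a tumour suppressor, had 2 probes. The brighter read 13.03, 12.95, 12.85, 12.81 and 12.01 on the scrambled arrays and 12.28, 11.59, 11.03, 10.68 and 12.57 on the miR-1225-3p arrays. Replicates 2, 3 and 4 of miR-1225-3p lay below all scrambled arrays, while replicates 1 and 5 lay above scrambled replicate 5. KLF6 was 2.15-fold lower, with a log2 difference of -1.10, a standard error of 0.369 and a limma adjusted p of 0.0422, and the exact permutation p was 0.0317. The second probe, which is assigned to another transcript of the gene, stood well above background on 3 scrambled arrays and on 2 with miR-1225-3p, and was kept through the scrambled group. Its values ran from 2.60 to 7.26 with miR-1225-3p and from 4.18 to 7.33 with the scrambled control, with wide overlap, and its difference of -1.74 had an exact permutation p of 0.143. The call of KLF6 was the least stable of the 5, since the mean of both probes (-1.42, limma adjusted p = 0.0800), scaling to the 75th percentile (-0.57), the slide term (-1.07, adjusted p = 0.0630) and 7 of the 10 arrays left out singly ended it. In the last case the adjusted p reached 0.0971.

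KLF10, the other TGF-beta inducible early gene and a close relative of KLF11, gave no difference past the threshold. It ran from 9.34 to 9.60 with the scrambled control (median 9.48) and from 9.04 to 9.99 with miR-1225-3p (median 9.40). Both ends of the range again belonged to miR-1225-3p replicates 1 and 4, as for SP1. The difference was -0.04 with a 95% interval of -0.45 to 0.37 and a limma adjusted p of 0.863. It turned positive after scaling to the 75th percentile (0.30), after quantile normalization (0.05), with array weights (0.03) and without miR-1225-3p replicates 1 (0.06) or 5 (0.03).

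KLF3, the CTBP-bound repressor, was the single gene of the 10 with a positive difference. It read 7.09, 7.39, 7.23, 6.93 and 6.76 on the scrambled arrays and 8.13, 7.77, 7.66, 7.02 and 7.04 on the miR-1225-3p arrays. Replicates 1, 2 and 3 of miR-1225-3p lay above every scrambled array, and replicates 4 and 5 were among them. The difference of 0.44 had a 95% interval of -0.08 to 0.97, a limma adjusted p of 0.152 and an exact permutation p of 0.103. It passed the threshold under 2 alternatives, with array weights (0.70) and within slide 1 (0.92).

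**Figure D2:**
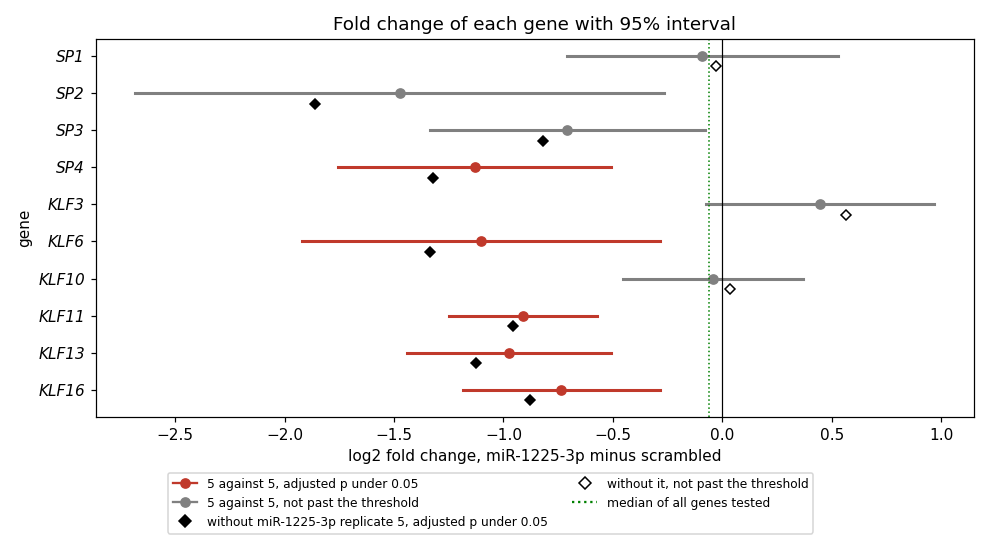
Log2 difference, miR-1225-3p minus scrambled (horizontal axis), with its 95% interval for each gene from all 10 arrays (circles, red where the limma adjusted p was under 0.05) and the value without miR-1225-3p replicate 5 (diamonds, filled where past the threshold). SP2 and SP3 pass in the fit without that array and not in the fit of all arrays, and the intervals of SP1, KLF3 and KLF10 span 0.

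The miR-1225-3p arrays varied more than the scrambled arrays for all 10 genes. The ratio of the SDs, miR-1225-3p over scrambled, ran from 1.04 for KLF16 to 5.09 for KLF13 with a median of 2.31, while over all genes the median was 1.68 and 75.6% were above 1. Replicates 3 and 4 of miR-1225-3p gave the lowest pair of values for SP2, SP3, SP4, KLF6 and KLF13. For KLF11 and KLF16 they did not, and for SP1 replicate 4 was the highest of all arrays. Replicate 4 also had the lowest score on the first principal component, -133.4, and whether this has a part in these values was not tested.

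The arrays came from 2 slides that both held arrays of each group, with miR-1225-3p replicates 1 and 2 on slide 1 and 3, 4 and 5 on slide 2. Each of the 5 called genes was lower within both slides. KLF11 differed by -0.92 on slide 1 and -0.94 on slide 2, KLF13 by -0.80 and -1.11, SP4 by -0.84 and -1.38, KLF16 by -0.91 and -0.63, and KLF6 by -0.70 and -1.45. KLF11 and KLF13 passed the threshold within slide 1 alone (limma adjusted p = 0.0451 and 0.0291), SP4 and KLF16 did not (0.0748 and 0.0597), and on slide 2 no gene of the whole array passed (1220 at an unadjusted p under 0.05). With slide as a term in the limma fit, SP4, KLF11, KLF13 and KLF16 were still called (adjusted p = 0.0292, 0.0188, 0.0219 and 0.0299). SP3 differed by -0.18 on slide 1 and -1.16 on slide 2, and KLF3 by 0.92 and 0.08; whether the slides themselves differ for these genes was not tested.

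**Figure D3:**
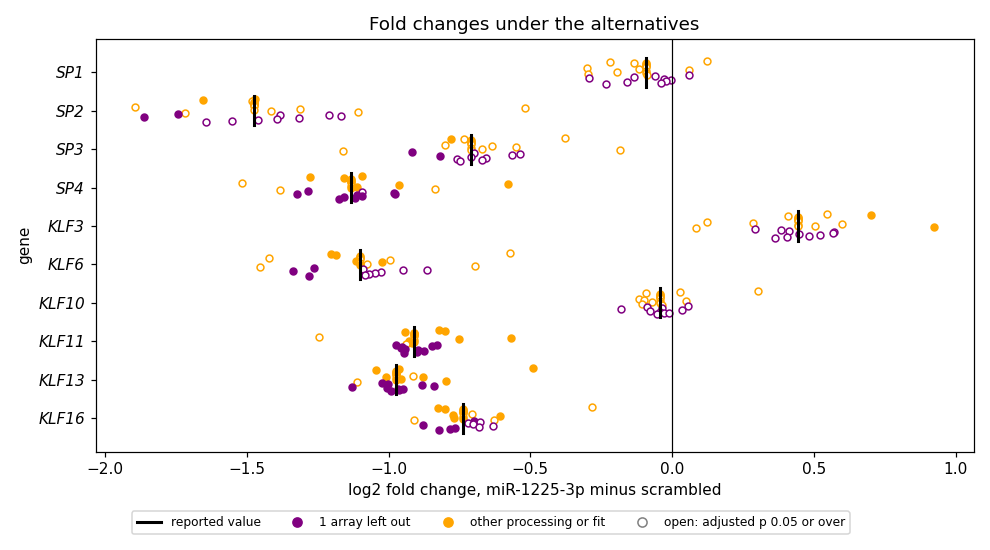
Log2 difference of each gene (horizontal axis) as reported (black bar), with 1 array left out (purple) and under other processing or fits (orange), filled where the adjusted p was under 0.05. KLF11 and KLF13 are past the threshold in 23 of 26 alternatives each and SP4 in 21, KLF16 in 16 and KLF6 in 10.

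The rest of the family was read beside these genes. Of the other 16 SP and KLF genes, 14 were tested, KLF14 and KLF15 not being bright enough. Of these, 2 (14.3%, against 35.0% of all genes) were called, both lower: SP9 (-0.84, limma adjusted p = 0.0213) and KLF8 (-0.54, 0.0287). SP8 had the largest difference of the 14 (-2.09) and missed the threshold (adjusted p = 0.0607), though rated well above background on all 10 arrays. On at least 1 array its value was left out as a flagged outlier spot, so this difference rests on fewer than 10 arrays. The median of the 14 genes was -0.26. KLF1, the erythroid factor, differed by -0.20 with an adjusted p of 0.524, and KLF2, KLF4 and KLF5 by -1.22, -0.48 and -1.45, none past the threshold. The probes of KLF2, KLF4 and KLF5 stood well above background on 7, 6 and 8 arrays.

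The partners of these factors were examined from lists of related genes. Of 15 genes of the SIN3 and CTBP corepressors, 3 were lower and 3 higher, with a median of -0.13 that turned to 0.31 after scaling to the 75th percentile. SIN3A, the scaffold that KLF10, KLF11, KLF13 and KLF16 bind, was lower without overlap between groups (-1.42, limma adjusted p = 0.0136). CTBP1 (-1.96, 0.0138) and KDM1A (-2.54, 0.0244) were lower too, KDM1A standing well above background on 7 of the 10 arrays. RBBP7 (0.54), ING2 (0.50) and SAP30 (0.47) were higher. CTBP2 depended on the probe, with 0.35 for the brighter (not called) and -1.65 for the other (called, adjusted p = 0.0232). RBBP4 did so too: its brightest probe gave -0.35 and the lowest of its 4 probes -4.28. Of 11 tested coactivators and cofactors of SP1, 4 were higher and 2 lower. The higher ones were the acetyltransferase KAT2B (1.11, limma adjusted p = 0.0136), the chromatin remodeller SMARCA4 (1.00, 0.0231), CREBBP (0.61, 0.0432) and TAF7 (0.57, 0.0355). KAT2B stood well above background on 8 of the 10 arrays. The lower ones were the Mediator subunit MED1 (-1.56, 0.0229) and the acetyltransferase EP300 (-1.33, 0.0363). MED1 stood well above background on 6 of the 10 arrays. EP300 did so on 4 and so passed the brightness filter through 1 group. MED23, another Mediator subunit, depended on the probe, with -1.002 for the brightest (not called) and 1.43 for another (called, adjusted p = 0.0125). Of 8 tested enzymes that modify SP1, 1 was higher, OGA, which removes O-GlcNAc (0.73, 0.0275). The 2 lower ones were the kinases CDK2 (-2.13, 0.0147) and CSNK2A1 (-0.94, 0.0279). CDK2 stood well above background on 7 of the 10 arrays, and CSNK2A1 had a second probe at -0.24 that was not called.

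Other factors that bind GC-rich elements went both ways. Of 14 tested, 4 were higher, EGR3 (2.35), NFYB (1.20), EGR1 (1.06) and E2F1 (0.86), and 6 were lower. The lower ones were ZNF281 (-0.72), ZBTB33 (-0.59), ZNF148 (-0.86), WT1 (-1.55), ZBTB7A (-0.94) and MAZ. WT1 and ZBTB7A stood well above background on 4 and 3 of the 10 arrays. Each so passed the brightness filter through 1 group, which limits the count of lower genes. EGR3 stood well above background on 7 of the 10 arrays. MAZ was lower by its brighter probe (-2.16) and not called by the other (-0.08). In the TGF-beta pathway, which induces KLF10 and KLF11, 6 of 10 tested genes were lower and none higher, with a median of -1.36. They included the receptor TGFBR2 (-1.85, limma adjusted p = 0.0200) and the ligand TGFB1 (-1.21, 0.0185), both well above background on all 10 arrays. The inhibitors SMAD7, SKI and TGIF1 were lower too, but stood well above background on 8, 7 and 8 arrays. SMAD2, the other lower gene, did so on 5 and so passed the brightness filter through 1 group. Signal near background thus limits what this count and median can tell. Of 8 tested genes described as KLF targets, 4 were lower and 1, MAOB (0.95, well above background on 7 of the 10 arrays), was higher. CCL5, which KLF13 is known to raise, differed by -0.93 (adjusted p = 0.0242). It was well above background on 3 of the 10 arrays and so passed the brightness filter through 1 group, which limits this call. LGALS3 gave -2.60 by its brighter probe and -0.46 by the other, both called. These lists were read against the 35.0% of all genes called, and no test was made of a list as a whole. KLF8 and SMAD7 each stood in 2 of the lists.

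**Figure D4:**
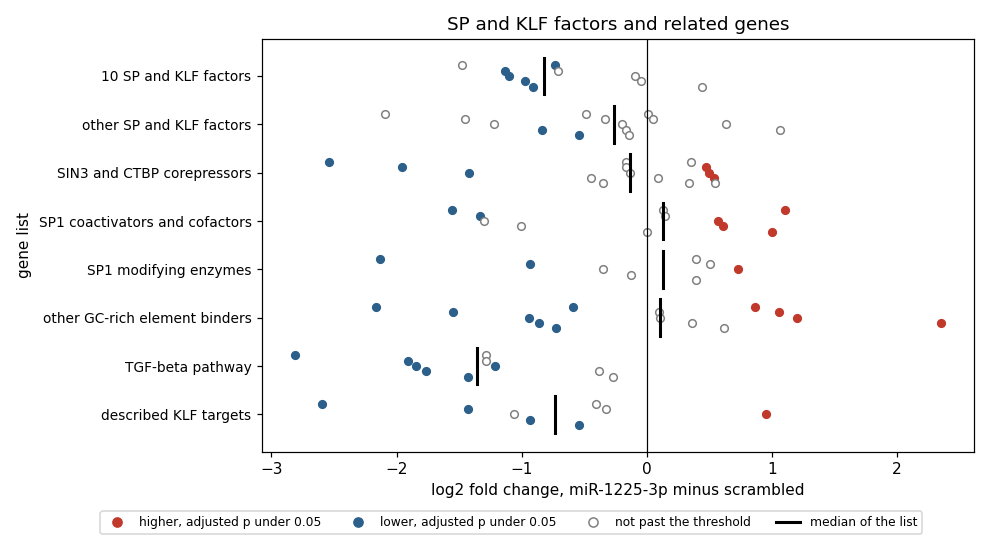
Log2 difference, miR-1225-3p minus scrambled (horizontal axis), of each tested gene in the 10 SP and KLF factors and in 7 related lists, filled where the limma adjusted p was under 0.05 (red higher, blue lower), with the list median as a bar. The medians run from -1.36 for the TGF-beta pathway to 0.13 for the coactivators and the enzymes that modify SP1.

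Genes with a GC box in their promoter window were compared as a group with those without it, as a description. Of 9636 tested genes with a window, 7200 held the GC box, and 18.07% of these were called higher and 20.32% lower, against 20.94% and 14.29% of the 2436 genes without it. The median differences were -0.06 and 0.06, but their opposite signs held under this scaling alone: they were 0.22 and 0.32 after scaling to the 75th percentile, 0.08 and 0.19 after quantile normalization and -0.21 and -0.10 with no normalization. The difference between these medians was -0.11 and stayed negative, at -0.11, under 3 other scalings. The windows with the box were richer in G and C, with a median of 66.7% against 57%, and the part of base composition in this difference was not tested. For the longer box the median was -0.08 over the 3055 genes with it and 0.01 over the 6581 without it. For the CACC box it was -0.05 over 411 genes with it and -0.03 over 9225 without it, and 17.52% and 18.85% of these were called in each direction.

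The labelled cell type was checked by its markers. Of the megakaryocyte markers 9 were tested, PF4 not being bright enough, and ITGA2B, FLI1 and NFE2 were lower (-1.39, -0.60 and -0.43). The mean of these markers ran from 7.78 to 8.60 on the miR-1225-3p arrays and from 8.68 to 8.75 on the scrambled arrays, without overlap, so it moved with the SP and KLF genes that were lower, and its part in them was not tested. For T lymphocytes the mean of 3 markers overlapped between groups (8.90 to 9.99 and 8.76 to 10.05), with CD3E higher (1.96, limma adjusted p = 0.0327). CD3E was well above background on 4 of the 10 arrays and so passed the brightness filter through 1 group. None of the tested erythroid (4), monocyte (2), B lymphocyte (1) or fibroblast (1) markers was called. On the scrambled arrays the erythroid mean ran from 11.56 to 11.86 and the B lymphocyte marker CD79A from 11.18 to 12.90, above the megakaryocyte mean. The T lymphocyte mean (8.76 to 10.05) lay above the megakaryocyte mean too. Within the erythroid mean, HBG1 averaged 18.34 and EPOR 6.20 on these arrays, so it depends on which probes it holds. The monocyte mean (5.97 to 6.86) and the fibroblast marker (4.78 to 5.52) lay below the megakaryocyte mean. These levels alone thus do not single out the megakaryocyte label.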

How the data were processed

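Each array's scanner file was made by the authors with Agilent Feature Extraction 10.7.3.1, per the labels, and holds the background-subtracted processed signal as a linear intensity per spot. The deposited value table holds log2 values of the same arrays, which the study's methods describe as cyclic loess normalized and set relative to controls. Its column medians were 4.77 to 5.15, its centring is only as described there, and it was used as an alternative. The members and gene lists were chosen with earlier results of these data known.

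Processed signals of non-control spots were log2 transformed and normalized by cyclic loess (3 iterations, limma 3.58.1, R 4.3.3), flagged outlier spots were left out, and the spots of a probe were averaged. Of 42405 probes, 20648 were kept, a probe needing 3 arrays or more, within miR-1225-3p or within scrambled, on which the scanner software rated it well above background. A gene was its kept probe with the highest mean, and 24910 probes had a symbol through their RefSeq transcript. Groups were compared with lmFit and eBayes on all 10 arrays, and the script was tested on simulated data. The number of arrays, 5 per group, limits the precision. Members were named in full. From each related list, called genes were named first, and SP8, KLF1, KLF2, KLF4, KLF5, CTBP2, RBBP4 and MED23 were added after their values were seen. Alternatives covered normalization, background, filter, probe choice, fit, slide, replicate number and each array left out. Promoters and the microRNA came from RefSeq tables on GRCh38.p14. A planned comparison of zinc finger sequences was not made.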

Additional observations from a re-analysis of the deposited data

Results flagged for a closer look

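In 22 groups of 5 values (11 probes in both groups), 1.1 would be expected by chance to hold a value far from the others, and 2 did. KLF6 on scrambled replicate 5 read 12.01, below the other scrambled arrays by 0.78 of the group's whole range. KLF16 on miR-1225-3p replicate 5 read 10.93, above the other miR-1225-3p arrays by 0.79 of the range.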

How the results depend on the processing

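The number of the 10 genes past the threshold was 5 as reported, 0 with no normalization, 8 with array weights (7 lower and KLF3 higher), 3 within slide 1 and 0 within slide 2, and leaving out 1 array at a time gave 2 to 7. Fewest were left without miR-1225-3p replicate 2 (2, KLF11 and KLF13), and 3 when any 1 of miR-1225-3p replicates 3 and 4 and scrambled replicates 1 and 2 was dropped. SP4 was lost without miR-1225-3p replicate 2 (adjusted p = 0.0508). Over all genes, 6091 became 1266 with no normalization, 3411 when dim probes were kept, 12389 with array weights and 0 within slide 2, and leaving out 1 array gave 2129 (without miR-1225-3p replicate 2) to 9624 (without miR-1225-3p replicate 5). Same-numbered arrays of the groups did not deviate together (correlations -0.40 to 0.07), so the numbers were not taken as pairs. With the replicate block 0 genes and 0 of the 10 were called by limma (7474 and 8 at an unadjusted p under 0.05), the adjusted p of KLF11, KLF13 and SP4 being 0.0518, 0.0518 and 0.0522. SP1 and KLF10 turned in sign, SP1 to 0.124 (75th percentile) and 0.0582 (quantile normalization), with -0.294 to 0.0597 when 1 array was left out, and KLF10 to 0.304, 0.0488 and, with array weights, 0.0274, with -0.181 to 0.0568 when 1 array was left out. List medians turned for the corepressors (0.31, 75th percentile), the SP1 coactivators (-0.25, no normalization) and the other GC-rich binders (-0.13, no normalization). The median of all genes moved from -0.06 to 0.16 (75th percentile), 0.08 (quantile normalization) and -0.26 (no normalization), and the median of the 10 genes lay below it by a log2 difference of -0.76, -0.59, -0.75 and -0.59. The cause of these shifts was not tested. SP4, KLF6, KLF11, KLF13 and KLF16 kept a negative difference in all 26 alternatives. The GC box comparison under other scalings was added after the data were seen. The methods' t-test with Benjamini-Hochberg adjustment called 4 of the 10 genes, KLF6 being lost, and 4677 of all genes. With dim probes such as those of SP2 and the second KLF6 probe, signal near background limits what can be told.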
